A study of Mus musculus with 10 samples.

Results

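The genes described here are 10 transcripts that report on the activity of the ERK pathway. They were chosen by name from the platform's gene symbols, with earlier results of these data known. They are the phosphatase genes Dusp4, Dusp5 and Dusp6, the Sprouty and Spred genes Spry2, Spry4, Spred1 and Spred2, the ETS factor genes Etv4 and Etv5, and Phlda1. All 10 were measured, each by 1 probe set, among 19505 genes. The arrays held RNA of small intestine organoids from BALB/c mice, which are cultures of intestinal epithelium grown in drops of basement membrane matrix. Both groups were exposed to 20 ng/ml recombinant murine TNF for 48 h. One group of 5 also received 5 mg/ml pegtarazimod, a peptide coupled to polyethylene glycol (PEG), and the other 5 received 2.625 mM PEG as vehicle. The samples are called biological replicates in the series design, but what separates them (animals, passages or wells) is not stated in the labels, so the p-values measure only the spread between these samples. No organoids without TNF were analysed here.

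ERK is the last kinase of a cascade that runs from growth factor receptors through Ras, Raf and MEK. In the intestinal crypt, EGF family ligands keep stem and progenitor cells dividing through this cascade, and organoids depend on such ligands. Active ERK raises the transcription of its own brakes: dual-specificity phosphatases that remove its phosphates, and Sprouty and Spred proteins that dampen signalling towards Ras and Raf. It also raises ETS factors of the PEA3 group, which carry the signal to further genes. Levels of these transcripts are therefore widely read as ERK output, although the assay measured RNA alone and no phosphorylated ERK.

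Expression is given on the log2 scale as the authors deposited it, and differences are pegtarazimod minus vehicle from limma, with Benjamini-Hochberg adjustment over all 19505 genes and a threshold of 0.05. Array medians lay between 5.60 and 5.66, and arrays correlated at 0.973 to 0.994 over all genes. Replicates 1 and 2 of both groups stood apart from replicates 3 to 5 on the first principal component of the values with group means removed (33.4% of their variance). The labels name no batch for this division, so differences within each subset, from a model with a spread pooled over all arrays, are given beside the results. Of the 6 epithelial markers (Epcam, Cdh1, Krt8, Krt18, Krt19, Cldn7), none had a mean below the lower quartile of every array, and their mean level was 10.53 to 10.76 in vehicle and 10.55 to 10.75 with pegtarazimod. Of these markers 0 fell and 1 rose, the keratin gene Krt19, by 0.33 (limma adjusted p = 0.0350), with separate groups, while Krt18 had a difference of -0.47 (adjusted p = 0.140). None of the 5 stromal, 4 immune and 4 endothelial markers measured passed limma (0, 1 and 1 had an unadjusted p below 0.05), and the mean level of these lists was at most 4.98, 4.27 and 3.81 on any array. RNA from a whole culture cannot tell fewer cells that express a gene from less of its RNA per cell.

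Of the 10 genes, 1 was lower with pegtarazimod, against 2.39% of all genes, and 0 were higher, against 2.50%. The gene that fell was Phlda1, at 2.43-fold. The classical feedback genes Dusp6, Spry2 and Spry4 differed by 0.20 or less on the log2 scale in either direction and did not pass. Etv4, Etv5 and Spred1 had lower means at 1.28-fold to 1.38-fold without passing the adjusted threshold. In all, 8 of the 10 differences were negative and 2 positive, with a median of -0.22, while 9619 of all genes had a negative difference and the median of all genes was 0.00. At an unadjusted limma p below 0.05, 4 of the 10 genes were lower, against 9.65% of all genes, and 0 were higher, against 9.31%. The values of the groups were separate for 1 of the 10 genes, again Phlda1, against 3.36% of genes separated downwards and 3.35% upwards.

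**Figure D1:**
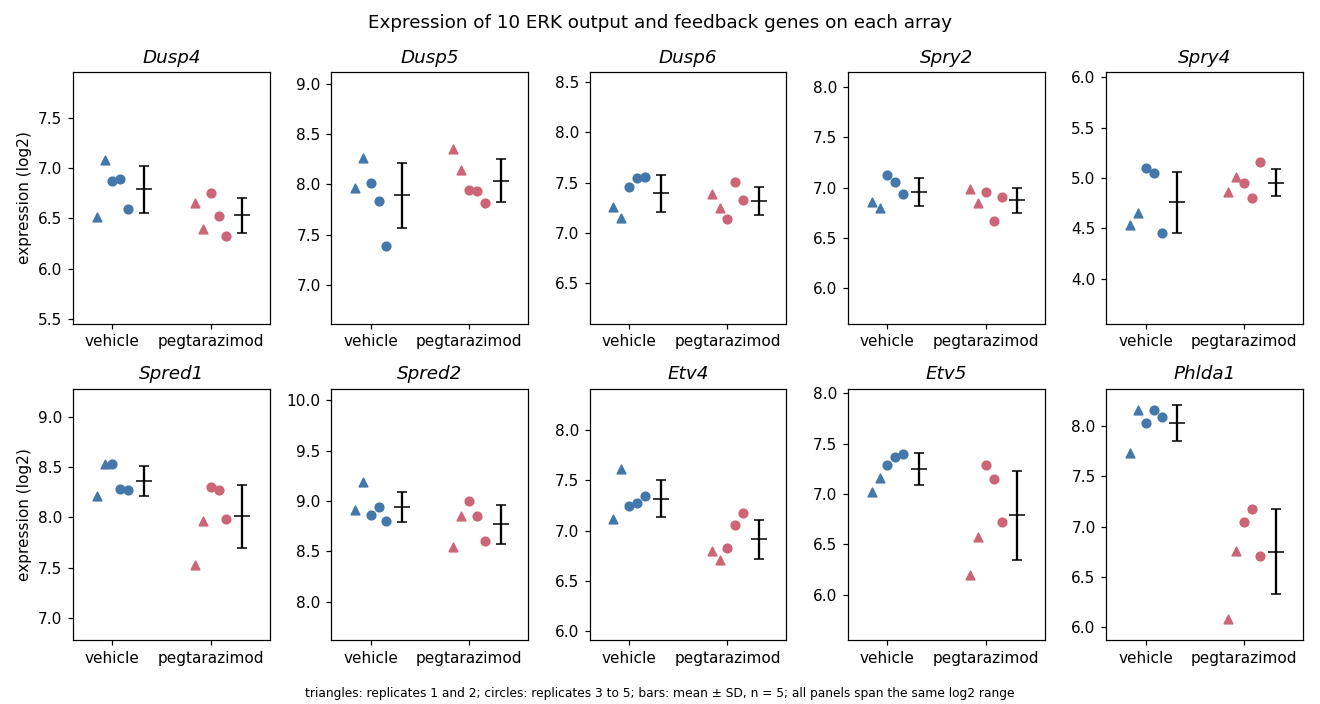
Expression (log2) of each of the 10 genes on every array, with vehicle in blue and pegtarazimod in red, triangles for replicates 1 and 2, circles for replicates 3 to 5, and bars for the mean ± SD (n = 5). The groups are separate for Phlda1, where vehicle lies between 7.73 and 8.16 and pegtarazimod between 6.08 and 7.18, and overlap for the other 9 genes.

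Phlda1 encodes a pleckstrin homology-like domain protein that was first described in activation-induced cell death, is induced by ERK in many cell types and has been described as a marker of intestinal stem cells. Its expression in vehicle replicates 1 to 5 was 7.73, 8.16, 8.03, 8.16 and 8.09. With pegtarazimod it was 6.08, 6.75, 7.05, 7.18 and 6.70. Every pegtarazimod array lay below every vehicle array, and the lowest value of all was that of pegtarazimod 1. The means were 8.03 ± 0.18 and 6.75 ± 0.42 (SD, n = 5), a difference of -1.28 with a 95% interval from -1.65 to -0.91 (limma adjusted p = 0.00131). The exact two-sided permutation test over the 252 assignments of the arrays gave p = 0.00794, the smallest this design allows. The difference was -1.53 within replicates 1 and 2 (limma adjusted p = 0.00136) and -1.11 within replicates 3 to 5 (0.00334). Leaving out each array in turn gave differences between -1.39 and -1.11, all past the threshold, with limma adjusted p of at most 0.00536.

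Etv4 and Etv5 are close relatives in the PEA3 group of ETS transcription factors, and ERK signalling both induces their genes and activates their proteins. Etv4 expression was 7.12, 7.61, 7.24, 7.28 and 7.35 in vehicle and 6.80, 6.71, 6.83, 7.06 and 7.18 with pegtarazimod. The groups overlapped through pegtarazimod 5 alone, which exceeded vehicle 1. The difference was -0.40 (95% interval -0.65 to -0.16, limma adjusted p = 0.0628, exact permutation p = 0.0159). It passed the threshold without pegtarazimod 5 (-0.47, limma adjusted p = 0.0380), without the dimmest 50% of genes (0.0357), under robust priors with an intensity trend (0.0465) and with the 2 subsets of replicates as a block (0.0378). Leaving out each of the other 9 arrays gave limma adjusted p of up to 0.155, so the position of Etv4 at the threshold rested on single choices.

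Etv5 expression was 7.02, 7.16, 7.29, 7.37 and 7.40 in vehicle and 6.19, 6.57, 7.29, 7.15 and 6.72 with pegtarazimod. Pegtarazimod 3 and 4 lay within the vehicle range, and pegtarazimod 1, 2 and 5 lay below it. The SD was 0.44 with pegtarazimod and 0.16 in vehicle. The difference was -0.46 (95% interval -0.84 to -0.09, limma adjusted p = 0.160, exact permutation p = 0.0714). Within replicates 1 and 2 it was -0.70 and passed (limma adjusted p = 0.0390), and within replicates 3 to 5 it was -0.30 and did not (0.384). The difference between these 2 values did not pass its own test (-0.41, interaction adjusted p = 0.740). With the 2 subsets as a block, Etv5 passed (limma adjusted p = 0.0318).

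Spred1 and Spred2 bind Ras and the RasGAP neurofibromin and restrain the activation of Raf. Spred1 expression was 8.21, 8.52, 8.53, 8.28 and 8.27 in vehicle and 7.53, 7.96, 8.30, 8.27 and 7.99 with pegtarazimod. As for Etv5, pegtarazimod 1, 2 and 5 lay below all vehicle arrays and pegtarazimod 3 and 4 lay among them. The difference was -0.35 (95% interval -0.65 to -0.06, limma adjusted p = 0.176, exact permutation p = 0.0635), and it was -0.62 in replicates 1 and 2 and -0.17 in replicates 3 to 5 without passing in either (limma adjusted p = 0.0634 and 0.649). Spred2 ranged from 8.80 to 9.19 in vehicle and from 8.54 to 9.00 with pegtarazimod. Its difference was -0.17 (interval -0.41 to 0.06, limma adjusted p = 0.452). In Spred2 too, as in Phlda1, Etv5 and Spred1, the lowest value of all 10 arrays was that of pegtarazimod 1.

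The Sprouty proteins act upstream in the cascade, where they interfere with the recruitment of adaptors and the activation of Raf, and Spry2 and Spry4 are standard readouts of ERK activity. Spry2 expression was 6.86, 6.79, 7.13, 7.06 and 6.93 in vehicle and 6.99, 6.85, 6.95, 6.67 and 6.90 with pegtarazimod. The groups overlapped, and the difference was -0.08 (95% interval -0.29 to 0.12, limma adjusted p = 0.721). Spry4 expression was 4.53, 4.65, 5.10, 5.05 and 4.45 in vehicle and 4.86, 5.01, 4.95, 4.80 and 5.16 with pegtarazimod. Here the mean was higher with pegtarazimod, with vehicle 1, 2 and 5 below and vehicle 3 and 4 within the pegtarazimod range, and the difference of 0.20 did not pass (interval -0.09 to 0.48, limma adjusted p = 0.481). The intervals allow Spry2 to be up to 1.22-fold lower or 1.09-fold higher, and Spry4 up to 1.06-fold lower or 1.40-fold higher.

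The 3 phosphatases differ in where they act: the DUSP6 protein is cytoplasmic and selective for ERK, DUSP5 is nuclear and selective for ERK, and DUSP4 is nuclear and also acts on other MAP kinases. Dusp6 expression was 7.26, 7.15, 7.45, 7.55 and 7.56 in vehicle and 7.39, 7.24, 7.14, 7.51 and 7.32 with pegtarazimod. The difference was -0.07 (95% interval -0.30 to 0.16, limma adjusted p = 0.788), which allows a change of up to 1.23-fold lower or 1.11-fold higher. Dusp5 ranged from 7.39 to 8.26 in vehicle and from 7.82 to 8.35 with pegtarazimod, with a difference of 0.15 (interval -0.17 to 0.47, limma adjusted p = 0.680). Dusp4 ranged from 6.51 to 7.08 in vehicle and from 6.33 to 6.75 with pegtarazimod, with a difference of -0.26 (interval -0.52 to 0.00, limma adjusted p = 0.271). So none of the 3 passed, and their differences had both signs.

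**Figure D2:**
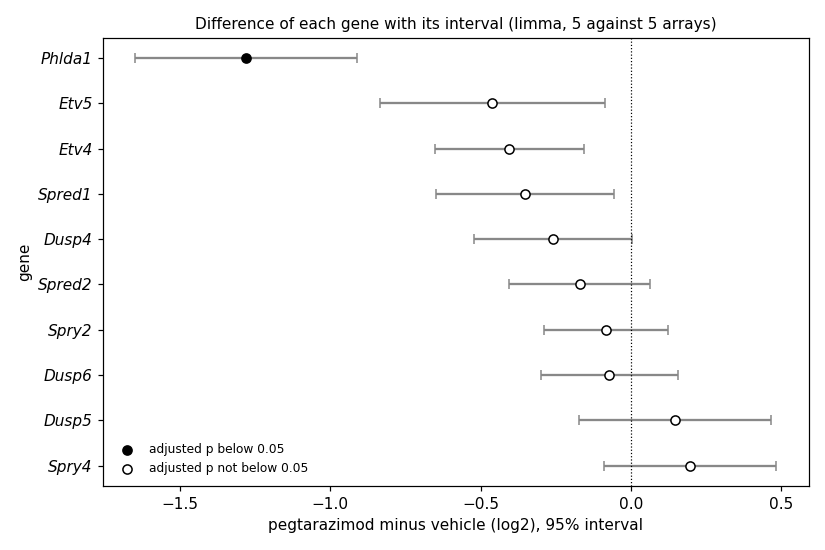
Difference in expression (pegtarazimod minus vehicle, log2) of each of the 10 genes, with the 95% interval from limma over 5 against 5 arrays. Phlda1 at -1.28 is the filled point, and the intervals of Dusp4, Dusp5, Dusp6, Spry2, Spry4 and Spred2 include 0.

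The differences of the 10 genes were compared between the subsets of replicates. Within replicates 1 and 2, Etv5 and Phlda1 were lower, 2 of 10 genes against 3.37% of all genes, and within replicates 3 to 5, Phlda1 alone was lower, 1 of 10 against 1.50%. Dusp4, Spred1, Spred2, Etv4, Etv5 and Phlda1 had the more negative difference in replicates 1 and 2. Dusp6 and Spry2 differed by 0.11 and 0.09 in replicates 1 and 2 and by -0.20 in both cases in replicates 3 to 5, and passed in neither. None of the 10 genes passed the interaction test of the 2 subsets, against 0.0256% of all genes, and 0 of the 10 had an unadjusted interaction p below 0.05.

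**Figure D3:**
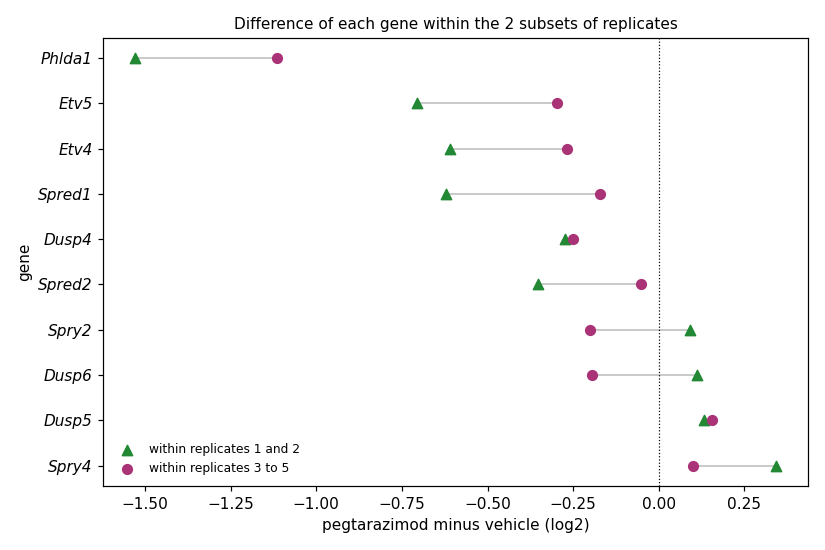
Difference in expression (pegtarazimod minus vehicle, log2) of each of the 10 genes within replicates 1 and 2 (triangles) and within replicates 3 to 5 (circles), joined by a line. Phlda1 is the lowest gene in both subsets (-1.53 and -1.11), and Dusp6 and Spry2 change sign between them.

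Sequences upstream of the genes were examined for motifs tied to the ERK pathway. RefSeq promoter windows of the GRCm38.p6 build (250 bases before to 50 after a start) were at hand for 6 of the 10 genes in 7 windows: Dusp5, Dusp6, Spry2, Spred1, Spred2 and Etv5, the last with 2 starts. Of ETS motifs only CCGGAAGT was searched, on both strands, and it was in 0 of the 7 windows and 3.89% of all 32851 windows. Other forms of ETS sites were not searched. The AP-1 motif TGANTCA was in 0 and 7.81%, and the CRE motif TGACGTCA in 0 and 1.79%. Capicua (CIC) is a repressor that ERK signalling releases from the promoters of PEA3 genes. Of its octamers only TGAATGAA and TGAATGGA were searched, and they were in 0 of the 7 windows, against 1.30% and 1.21% of all windows. Other forms of its site were not searched, so these counts do not cover all CIC sites. The shorter hexamer TGAATG, which both searched octamers contain, was added after the octamers were not found. It was in 3 of the 7 windows, those of Dusp6, Dusp5 and the downstream start of Etv5, and in 12.7% of all windows. The matches are shown because they are the only matches of the searched motifs in these windows. They are given 5′ to 3′ on the strand of the gene, with the hexamer or its reverse complement in capitals.
Dusp6, chr10:99263086-99263115, plus strand, 133 bases before the start: tttccgtttttgTGAATGacaaactcatta
Etv5, chr16:22438589-22438618, minus strand, 242 bases before the start: agttttcaTGAATGggaaggctgggaattg
Etv5, chr16:22438549-22438578, minus strand, 198 bases before the start: tgtcttgttttgTGAATGgggccgggcgcg
Etv5, chr16:22438480-22438509, minus strand, 129 bases before the start: ggctccatctccCATTCAtaaaaccaggct
Dusp5, chr19:53529096-53529125, plus strand, 37 bases before the start: aggacgcgcactCATTCAcataaaacgctg

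Dusp6 and Dusp5, which hold 1 match each, differed by -0.07 and 0.15, and Etv5, which holds 3, by -0.46, so genes with the hexamer had differences of both signs. The stretch of Dusp6 is part of the following 250 bases upstream of its start (GRCm38.p6, chr10:99262981-99263230, plus strand). It is shown because Dusp6 is a widely used ERK readout and had the smallest difference in size of the 10 genes. A match describes these letters and not occupancy by any factor.
Dusp6: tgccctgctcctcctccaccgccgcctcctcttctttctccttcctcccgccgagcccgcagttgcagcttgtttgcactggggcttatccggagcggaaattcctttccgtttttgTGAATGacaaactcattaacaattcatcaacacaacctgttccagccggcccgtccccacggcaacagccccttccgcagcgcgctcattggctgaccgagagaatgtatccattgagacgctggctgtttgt

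Beyond the 10 genes, other genes of the pathway were counted in lists. Over all genes, 2.39% fell and 2.50% rose. Among 19 further genes listed as ERK-induced, 3 fell and 0 rose. The list includes Epha4 and the Phlda1 relatives Phlda2 and Phlda3, and whether ERK induces each gene in these organoids was not tested. The median difference of the 19 genes was -0.28, and 18 of 19 differences were negative, against 9619 of all 19505 genes. At an unadjusted limma p below 0.05, 11 of the 19 were lower and 0 higher, against 9.65% and 9.31% of all genes. Ier3, which encodes an immediate early protein that affects survival, fell by 1.33 (2.51-fold, limma adjusted p = 4.82e-05), with vehicle arrays between 7.42 and 7.71 and pegtarazimod arrays between 5.90 and 6.56. The receptor tyrosine kinase gene Epha2 fell by 1.08 (limma adjusted p = 0.00496), from 7.73 to 8.39 in vehicle to 6.61 to 7.60 with pegtarazimod. Its relative Epha4 fell by 1.15 (limma adjusted p = 0.0244), with overlapping groups. Omission of any of 6 arrays ended the call of Epha4 (limma adjusted p of up to 0.0718, without vehicle 3), as did robust priors with an intensity trend (0.0572). The Epha4 difference within replicates 1 and 2 was -1.04 and missed the threshold (limma adjusted p = 0.0612), and within replicates 3 to 5 it was -1.22 and passed (0.0141). The immediate early genes Egr1, Fos and Myc had differences of -0.55, -0.25 and -0.58 that missed the threshold (limma adjusted p = 0.0558, 0.151 and 0.122). With the 2 subsets as a block 7 of the 19 fell, against 4.83% of all genes, Egr1 and Myc among them (limma adjusted p = 0.0202 and 0.0217). Ier3 and several others in this list also respond to TNF through NF-kB, and the part of that route was not tested.

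Relatives of the feedback genes outside the 10 also moved in some cases. Of 15 genes in a list of other ETS genes and the Capicua gene Cic, 2 fell and 0 rose (median -0.19). Ets2, an ETS factor that ERK phosphorylates, fell by 0.66 (limma adjusted p = 0.00276) from 9.87 to 10.21 in vehicle to 9.17 to 9.59 with pegtarazimod. The repressor gene Etv6 fell by 0.45 (limma adjusted p = 0.0375), a call that omission of any of 8 arrays ended, with the highest adjusted p, 0.0962, reached without pegtarazimod 2. Within replicates 1 and 2 Etv6 had a difference of -0.70 that passed (limma adjusted p = 0.00483), and within replicates 3 to 5 one of -0.29 that missed the threshold (0.179). Of 3 further Sprouty and Spred genes, Spry1 fell by 0.59 (limma adjusted p = 0.0460), with overlapping groups. Its call ended on omission of any of 7 arrays (limma adjusted p of up to 0.131, without vehicle 3), with each array centred on its median (0.0519) and after quantile normalisation over the named genes (0.0549). The Spry1 difference passed both within replicates 1 and 2 (-0.58, limma adjusted p = 0.0268) and within replicates 3 to 5 (-0.59, 0.0115). Of 13 further dual-specificity phosphatases 1 fell, Dusp10, whose product acts mainly on JNK and p38, by 0.71 (limma adjusted p = 0.0389). Omission of any of 6 arrays ended the call of Dusp10, and among these omissions the highest adjusted p was 0.110, without vehicle 3. The Dusp10 difference within replicates 1 and 2 was -0.48 and missed the threshold (limma adjusted p = 0.276), and within replicates 3 to 5 it was -0.87 and passed (0.0158). Dusp1, a phosphatase gene induced by stress and growth factors alike, had a difference of -0.44 that missed the threshold (limma adjusted p = 0.443).

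Upstream of ERK, 0 of the 16 measured cascade genes passed limma in either direction, and their median difference was -0.03. At an unadjusted p below 0.05, 2 of them were lower and 2 higher. The largest were those of the MEK gene Map2k2 (0.34) and the scaffold gene Ksr1 (0.39), neither past the threshold (limma adjusted p = 0.103 and 0.104). With the 2 subsets as a block Ksr1 passed (limma adjusted p = 0.0276), and within replicates 1 and 2 Map2k2 did (0.57, adjusted p = 0.0315). Among 19 genes for growth factor ligands, their receptors and the receptor regulators Errfi1, Lrig1 and Cbl, 2 fell and 0 rose (median -0.08). Fgfr4, a receptor for fibroblast growth factors, fell by 1.12 (limma adjusted p = 0.0163), from 5.80 to 7.01 in vehicle to 4.85 to 5.76 with pegtarazimod. Lrig1, a negative regulator of ErbB receptors and a stem cell marker, fell by 0.60 (limma adjusted p = 0.00753), from 9.86 to 10.16 in vehicle to 9.19 to 9.73 with pegtarazimod. The receptor genes Egfr and Erbb2 differed by -0.14 and 0.26 and the ligand gene Hbegf by -0.35, and none of them passed (limma adjusted p = 0.706, 0.126 and 0.0990). For Erbb2 every pegtarazimod array nevertheless lay above every vehicle array. Of the 19 genes 1 was separated upwards, against 3.35% of all genes, and 2 downwards, against 3.36%. Fgfr2, another fibroblast growth factor receptor gene, had a difference of -0.49 that missed the threshold (limma adjusted p = 0.147). Within replicates 1 and 2 it was -1.09 and passed (limma adjusted p = 0.000612), within replicates 3 to 5 it was -0.09 (0.785), and the difference between these values missed its own test (interaction adjusted p = 0.111). Of the 13 genes of the parallel p38 and JNK pathways 0 passed limma, with a median of -0.17, and at an unadjusted p below 0.05 3 were lower and 1 higher.

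**Figure D4:**
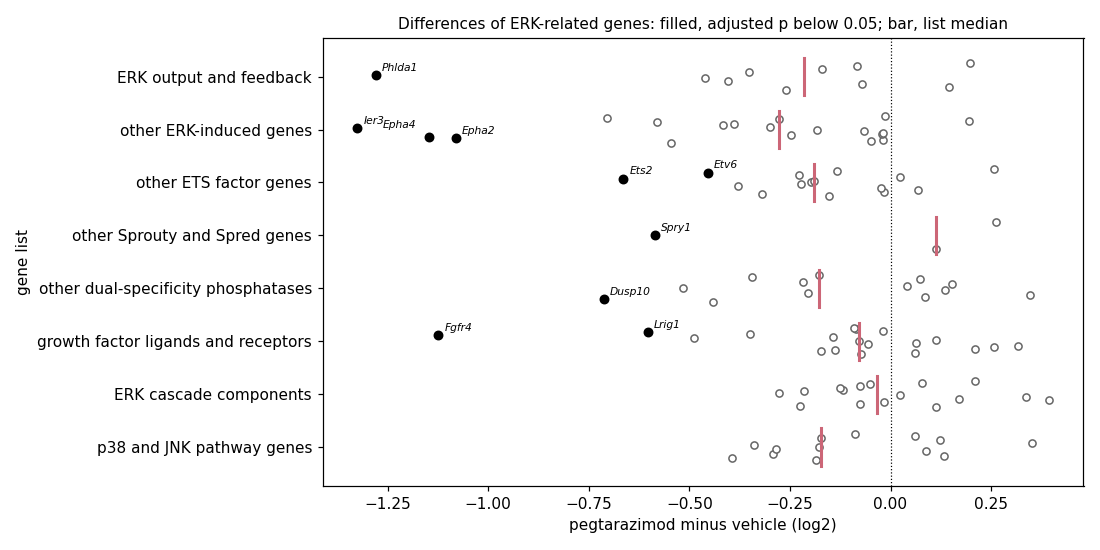
Difference in expression (pegtarazimod minus vehicle, log2) of every measured gene of 8 ERK-related lists, 1 point a gene, filled where the limma adjusted p was below 0.05, with a red bar at the list median. All filled points lie below 0, from -1.33 (Ier3) to -0.45 (Etv6), and the medians lie between -0.28 and 0.11. The row of other ETS factor genes also holds Cic. The row of growth factor ligands and receptors also holds the receptor regulators Errfi1, Lrig1 and Cbl.

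Markers of stem and dividing cells, in which ERK signalling is active in the crypt, moved in the same direction as Phlda1. Paneth cell markers did too (3 of 6 fell and 0 rose, with 6 of 6 differences negative). The shares of all genes that fell and rose were 2.39% and 2.50%. Of 9 stem cell markers measured (Lgr5, Ascl2, Axin2, Sox9, Smoc2, Rgmb, Tnfrsf19, Cdca7 and Slc12a2) 7 fell and 0 rose, and their mean level was 8.98 to 9.29 in vehicle and 7.51 to 8.25 with pegtarazimod. Of 10 proliferation markers measured 5 fell and 0 rose, with a mean level of 9.13 to 9.34 in vehicle and 8.16 to 8.93 with pegtarazimod. Differences of the proliferation markers were -1.20 to -0.40 within replicates 1 and 2 and -0.58 to -0.07 within replicates 3 to 5. None of them passed the interaction test of these subsets. Of 10 enterocyte markers 3 rose and 0 fell, with a mean level of 8.41 to 9.03 and 9.20 to 10.36. The mean level of the 10 ERK output and feedback genes was 7.21 to 7.46 in vehicle and 6.94 to 7.22 with pegtarazimod. The part of these cell type markers in the difference of Phlda1 was not tested.

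For each of the 10 genes the gene with the most similar values over the 10 arrays was taken as the one with the highest Pearson r, out of 19495 genes, so high values are favoured by the choice. For Phlda1 this was 9030624G23Rik (r = 0.983, and 0.906 after removal of the group means), which itself fell by 0.53 (limma adjusted p = 0.00824). For Etv5 it was Pkp4, which encodes a junction plaque protein (r = 0.987 and 0.980), and for Spred1 it was Clic4, which encodes a chloride intracellular channel protein (r = 0.985 and 0.979). The differences of Pkp4 and Clic4, -0.24 and -0.36, missed the threshold (limma adjusted p = 0.271 and 0.218). The nearest gene of Dusp4 was Gadd45b (r = 0.943 and 0.913), that of Dusp6 was Efemp1 (0.895 and 0.892) and that of Spry4 was Dyrk4 (0.930 and 0.972). That of Dusp5 was Maf (0.954 and 0.953) and that of Spry2 was P2ry13 (0.915 and 0.920). That of Spred2 was Mrgbp (0.941 and 0.922) and that of Etv4 was Olfr836 (0.942 and 0.927). The 10 arrays share the division into replicates 1 and 2 and replicates 3 to 5, which enters all of these values.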

How the data were processed

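The values are log2 expression per probe set as the authors deposited them, made with oligo and RMA per the submitters' processing notes. For versions, annotation and genome build: not given in the sources used here. RMA makes arrays alike in distribution, so a shift common to most genes would not be seen. Of 22203 probe sets, 19572 had 1 gene symbol, 0 had several and 2631 had none and were left out. For genes with several probe sets (55 of 19505, none of the 10 described), the one with the highest mean was used. The R 4.3.3 package limma 3.58.1 fitted the 2 groups over 19505 genes (lmFit, eBayes, no covariates). The fit was tested on simulated data. Figures were drawn with matplotlib 3.10.9.

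The 10 genes, the lists, the subsets of replicates and the tests were chosen with earlier results of these data known. In the pathway lists, genes past the threshold were named, up to 6 a list; Egr1, Fos, Myc, Dusp1, Egfr, Erbb2, Fgfr2, Hbegf, Map2k2, Ksr1, Krt18 and Krt19 were named after their values were seen. Goblet, Paneth, enteroendocrine and tuft cell markers were counted too: 6 of 6 goblet and 2 of 5 enteroendocrine markers rose, 3 of 6 Paneth markers fell and 0 of 4 tuft markers passed (2 of 4 had a negative difference). No detection calls were used. The number of arrays limits the precision.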

Additional observations from a re-analysis of the deposited data

How the results depend on the processing

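Phlda1 kept its direction and its call in all 21 alternatives, with differences from -1.53 to -1.11. Of the 10 genes 2 instead of 1 were lower without the dimmest 50% of genes, with an intensity trend and robust priors, and within replicates 1 and 2, and 3 with the 2 subsets of replicates as a block. Leaving out each array gave 1 to 2 lower genes. Over all genes, 954 passed, 1820 with the 2 subsets as a block and 437 to 1245 on leaving out each array. Within replicates 1 and 2, Dusp6 (0.11) and Spry2 (0.092) turned in direction and did not pass, and within replicates 3 to 5 so did Egfr (0.084). The cause of these changes was not tested. Spry4 was among the dimmest 50% of genes and has no value without them.

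The labels do not say whether same-numbered arrays of the groups were paired. Their deviations from the group means correlated at 0.0993 to 0.310, and 4 of 5 vehicle arrays correlated best with their own number, a hint from the data and not from the design. With the replicate number as a block 1606 genes and 2 of the 10 passed, Phlda1 and Etv5 (-0.46, limma adjusted p = 0.0415). Of the other pathway genes named that missed the threshold, Dusp1 (-0.44, adjusted p = 0.0112), Egr1 (0.00386), Myc (0.00351) and Ksr1 (0.0413) passed with this block.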
